A study of Rattus norvegicus with 9 samples.

Results

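ATP-binding cassette (ABC) transporters of subfamilies A, B, C, E, F and G were examined in rat liver. The members were the genes whose symbol in the deposited count table starts with Abca, Abcb, Abcc, Abce, Abcf or Abcg followed by a digit, which gave 44 of 24496 genes. Subfamily D, which sits in the peroxisome and lysosome, was left out. Of the 44 members 15 belonged to A, 8 to B, 10 to C, 1 to E, 3 to F and 7 to G. Some family genes, among them Abcb4, Abcb1b and Abca7, were not analysed here. Tap1, Tap2 and Cftr are ABC genes under other symbols and were followed as a separate list.

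ABC transporters bind and hydrolyse ATP to move a substrate across a membrane. In hepatocytes the canalicular exporters send bile salts, conjugated bilirubin, sterols and drugs into bile, while members on the sinusoidal side return conjugates to blood. Many of them respond to nuclear receptors for bile acids, oxysterols and foreign chemicals. Proteins of subfamilies E and F have no membrane part and act in translation.

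RNA came from liver of 9 female Wistar rats, 1 library per animal. All had begun a western diet at 10 weeks of age, lost their ovaries after 6 weeks of it, and received degarelix, which blocks the receptor for gonadotropin-releasing hormone and so lowers the pituitary's own follicle-stimulating hormone (FSH) and luteinising hormone. The 4 rats labelled Degarelix + FSH (FSH group) had pumps that released FSH at 6 µg per kg per day, and the 5 labelled Degarelix-only (vehicle group) had pumps with vehicle. Both groups had limited food for 12 days and free food for 7 days, and were killed at 19 weeks of age after a fast of 4 h. No group had intact ovaries, a standard diet or no degarelix.

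Values are read counts per gene, given as CPM (counts per 1e6 reads, after scaling between libraries by the trimmed mean of M values). Libraries held 23430807 to 27008941 counts with FSH and 19295580 to 28672439 with vehicle, so that 1 read was worth 0.0353 to 0.0532 CPM. The table is of whole liver, in which fewer cells of a type and less RNA per cell cannot be told apart. Summed hepatocyte markers lay at 177890 to 281370 CPM in the FSH group and 203090 to 247740 CPM in the vehicle group. Albumin alone made up 101310 to 208570 CPM of this with FSH and 128570 to 170870 CPM with vehicle. Of the 10 genes, only Fgb, Asgr1 and Tat had an edgeR p under 0.05 before adjustment. Fgb and Asgr1 were higher with FSH (log2 fold change 0.55, SE 0.18, and 0.26, SE 0.10). Tat was lower (−0.88, SE 0.31), with each FSH library below all vehicle libraries. None of the 10 passed an adjusted p of 0.05 in edgeR, DESeq2 or limma-voom. Erythroid markers summed to 121 to 490.5 CPM in the FSH group, highest in replicate 3, and to 76.4 to 158 CPM in the vehicle group, and DESeq2 called Hbb of that list (adjusted p = 0.0241) where edgeR did not (0.204). Lymphocyte markers summed to 3.65 to 5.59 CPM in the FSH group and 3.10 to 7.02 CPM in the vehicle group. FSH replicate 1 stood apart, with albumin (Alb) at 19.4% of its counts against 10.5 to 16.7% in the other 8 libraries. Values without it are given for the members at an unadjusted p under 0.05 that lost this p without it. CPM are not scaled to transcript length, so levels are compared between libraries for a gene and not between genes.

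Reads of the family were 0.304 to 0.316% of all counts with FSH and 0.278 to 0.3004% with vehicle. Summed CPM over all members was 3389, 3074, 3042 and 3075 in FSH replicates 1 to 4, and 2876, 2789, 2816, 2897 and 2865 in vehicle replicates 1 to 5. Every FSH library thus lay above every vehicle library, and no test was made of this sum. Abcc2, Abcc6, Abcb11 and Abca8a together held 66.5 to 70.5% of the family's reads with FSH and 65.6 to 70.4% with vehicle.

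Of the 44 members, 36 had enough reads to be tested, and each of these had reads in all 9 libraries. Abca12, Abca13, Abca14, Abca15 and Abcb5 were listed at 0 in every library. As the 13 mitochondrially encoded genes are also listed at 0 throughout this table, a 0 does not show that a gene is not expressed. Abcc12 and Abcg4 had 5 and 9 reads over all libraries. Abca17, with 59 reads, fell under the filter too. It had 3, 5, 4 and 2 reads in FSH replicates 1 to 4 and 5, 12, 6, 8 and 14 reads in vehicle replicates 1 to 5. In CPM its FSH libraries, at 0.0864 to 0.203, were all below the vehicle libraries, at 0.212 to 0.744. That gap is less than 1 read is worth, and in reads FSH replicate 2 and vehicle replicate 1 met at 5. Without the filter, 3.39% of all genes did not overlap.

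None of the 36 members passed an edgeR adjusted p (false discovery rate, FDR, over all 11924 genes tested) of 0.05, where 0.0335% of all genes tested did. With DESeq2 1 member passed, Abcb1a, beside 1.54% of all genes with an adjusted p, and with limma-voom 0 members passed. At an unadjusted edgeR p under 0.05 there were 7 members (19.4%), where 11.6% of all genes tested passed. Abcb1a, Abca3, Abcc1, Abcg2, Abcg8 and Abcg3l3 were the 6 with higher values under FSH (background 6.42%), and Abcc8 was the 1 with lower values (background 5.14%). That count was 3 members (8.33%) without FSH replicate 3, vehicle replicate 1, vehicle replicate 4 or vehicle replicate 5, where 9.15, 9.36, 10.7 and 10.8% of all genes tested passed, so that the share of members was then below that of all genes. It was 4 members (11.1%) without FSH replicate 1, against 9.49% of all genes tested. Abcb1a and Abca3 kept an unadjusted p under 0.05 with each of the 9 animals left out, Abcg8 and Abcc8 with 4 of them, Abcg2 and Abcc1 with 3, and Abcg3l3 with 2. In 22 of 36 members (61.1%) the log2 fold change of FSH over vehicle was above 0, against 50.5% of all genes tested. The median was 0.05 over members and 0.0019 over all genes tested.

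**Figure D1:**
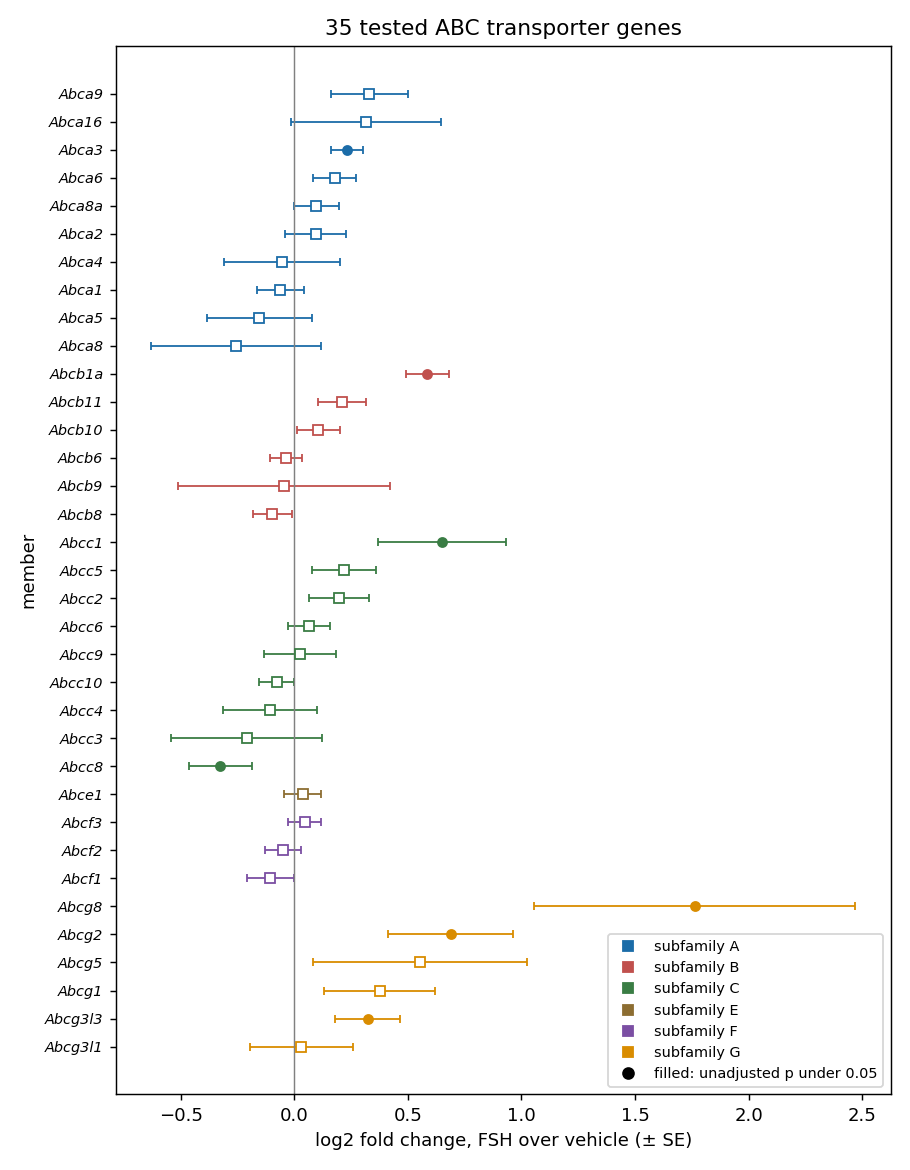
Log2 fold change of FSH over vehicle (± SE, edgeR) for 35 of the 36 tested members, coloured by subfamily; filled circles mark an unadjusted p under 0.05 and open squares the other members. All 6 members of subfamily G sit to the right of 0, Abcb1a has the narrowest error bar among the members beyond 0.5, and subfamilies E and F lie within 0.11 of 0.

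By subfamily, the median log2 fold change was 0.46 in G, where 6 of 6 tested members had higher values with FSH, and 0.09 in A, where 6 of 10 did. It was 0.02 in C (5 of 9 higher), −0.04 in B (3 of 7 higher), −0.05 in F (1 of 3 higher) and 0.04 for the single member of E. In G, the log2 fold changes of Abcg8, Abcg5 and Abcg1 were 1.76, 0.55 and 0.38 with all animals. They were 0.53, 0.11 and 0.06 without FSH replicate 3. Those of Abcg2 and Abcg3l3 were 0.69 and 0.32 with all animals, and 0.65 and 0.38 without it. No test of a difference between subfamilies was made. The ranges of the FSH and vehicle libraries did not overlap for 2 members, Abcb1a and Abca3, both higher with FSH. That is 5.56% of the members tested, against 4.11% of all genes tested in either direction and 2.19% higher with FSH.

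The levels of the bile salt and organic anion exporters overlapped between the groups. Abcb11, the bile salt export pump of the canalicular membrane, was at 523, 396, 514 and 428 CPM in FSH replicates 1 to 4, and at 415, 354, 445, 389 and 407 CPM in vehicle replicates 1 to 5. FSH replicates 1 and 3 were above all vehicle libraries, and the other pair lay within their range. Its log2 fold change was 0.21 (SE 0.11, adjusted p = 0.484 in edgeR).

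Abcc2, the canalicular carrier of conjugated bilirubin and glutathione conjugates, was at 1010, 847, 708 and 843 CPM in the FSH group and at 776, 709, 592, 890.2 and 750.2 CPM in the vehicle group. Only FSH replicate 1 exceeded all vehicle libraries, and FSH replicate 3 was below most of them. The log2 fold change of Abcc2 was 0.20 (SE 0.13, adjusted p = 0.611 in edgeR), and 0.10 without FSH replicate 1. Abcc6, which is needed for release of ATP from hepatocytes and for plasma pyrophosphate, was at 558, 616, 513 and 649 CPM in the FSH group and at 582, 502, 606, 558 and 544 CPM in the vehicle group. FSH replicates 2 and 4 were above all vehicle libraries, and the other pair lay within their range (log2 fold change 0.06, SE 0.09, adjusted p = 0.838 in edgeR). Without FSH replicate 4 the log2 fold change of Abcc6 was 0.0097, and without FSH replicate 3 it was 0.12.

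Abcc3 and Abcc4, carriers of the sinusoidal side that export conjugates and bile salts to blood, varied widely among animals of both groups. Abcc3 was at 4.77, 8.73, 14.96 and 9.55 CPM in the FSH group and at 6.76, 18.4, 9.12, 9.75 and 10.8 CPM in the vehicle group. Abcc4 was at 5.96, 5.56, 7.64 and 4.45 CPM in the FSH group and at 6.60, 8.93, 5.76, 6.04 and 4.41 CPM in the vehicle group. In both genes FSH replicate 3 and vehicle replicate 2 were the highest of their groups. Their log2 fold changes of −0.21 (SE 0.33) and −0.11 (SE 0.21) did not pass (adjusted p = 0.853 and 0.879 in edgeR). They turned to 0.06 and 0.045 without vehicle replicate 2.

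**Figure D2:**
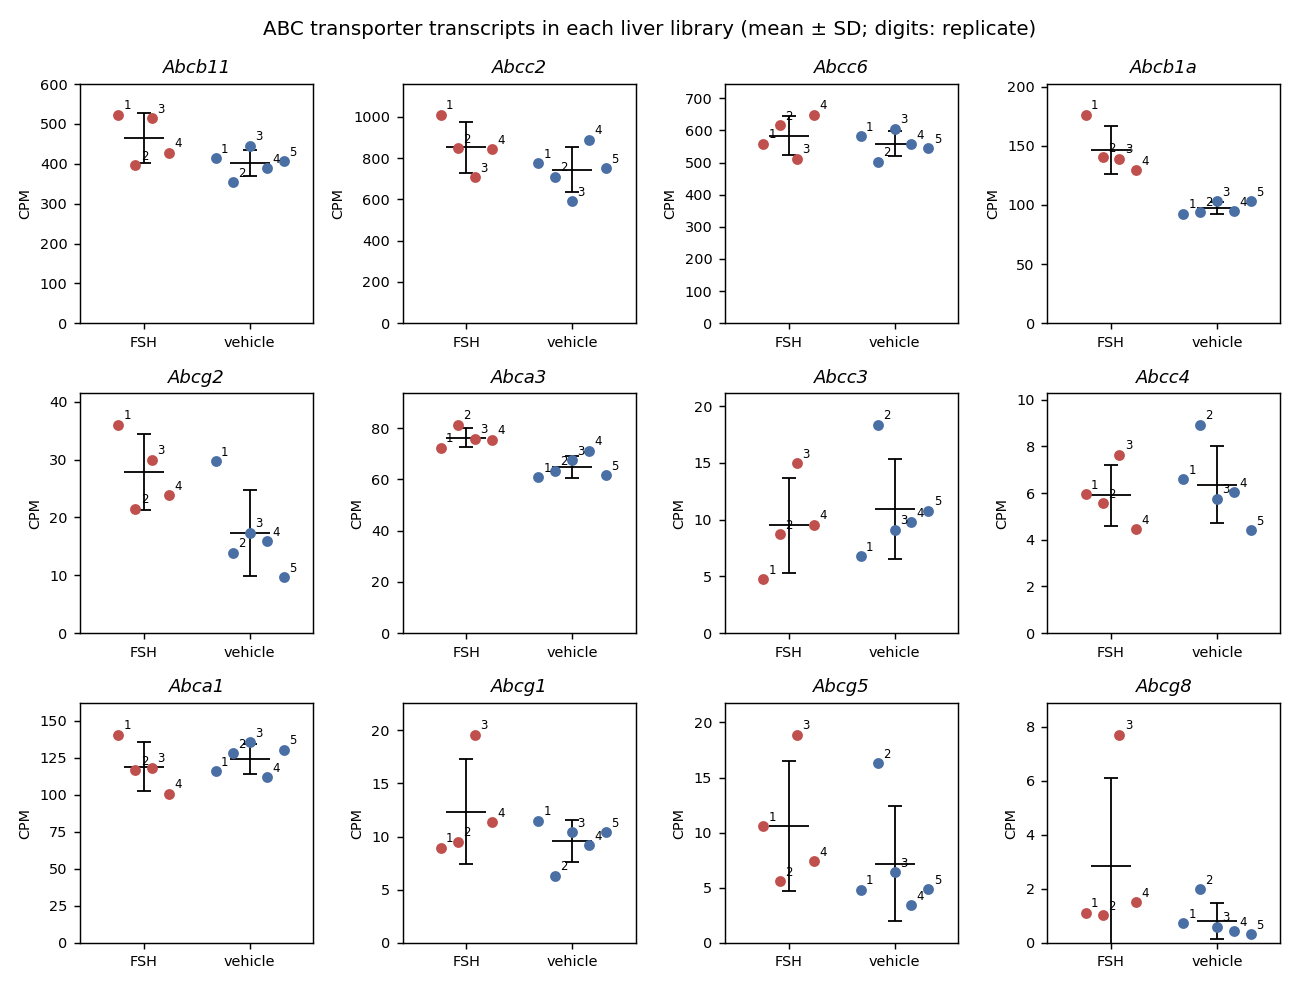
CPM of 12 members in each library (linear axes from 0; points are animals, with the replicate number beside each; bars are mean ± SD for 4 FSH and 5 vehicle libraries; the lower SD bar of Abcg8 with FSH passes below 0 and is cut there). The FSH points of Abcb1a, from 129 to 176 CPM, and of Abca3 lie above all vehicle points, while for Abcg5 and Abcg8 FSH replicate 3 and vehicle replicate 2 stand far above the other animals of their groups.

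The drug exporters Abcb1a and Abcg2 had higher values under FSH, short of the edgeR threshold. Abcb1a (ENSRNOG00000008012) encodes one of the P-glycoproteins of rodents, which pump many lipophilic drugs out of hepatocytes, gut cells and brain capillaries. It was at 176, 140.5, 139 and 129 CPM in FSH replicates 1 to 4, and at 92.6, 94.3, 103, 94.6 and 103 CPM in vehicle replicates 1 to 5. The lowest FSH library was above the highest vehicle library, and the vehicle animals were within 1.12-fold of each other.

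Mean levels of Abcb1a were 146 ± 20.5 CPM in the FSH group (SD, n = 4) and 97.6 ± 5.22 CPM in the vehicle group (SD, n = 5). The log2 fold change of 0.58 (SE 0.09) had the 12th smallest p of all genes tested, at an edgeR adjusted p of 0.0843. DESeq2 called it (log2 fold change 0.58, adjusted p = 5e-05), and limma-voom did not (adjusted p = 0.0731). Without FSH replicate 1 the log2 fold change was 0.48 (adjusted p = 0.137 in edgeR), and with each of the 9 animals left out in turn it lay between 0.48 and 0.64, with adjusted p from 0.0936 to 0.282. Its close relative Abcb1b was not analysed here, and reads that match both genes may have been lost or shared.

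Abcb1a is also expressed in endothelial cells, and endothelial markers were higher with FSH in 7 of 9 tested genes, against 50.5% of all genes tested. Clec4g, a lectin of sinusoidal endothelium, had a log2 fold change of 0.61 (SE 0.13), and the scavenger receptor Stab1 had 0.43 (SE 0.11). Neither overlapped between groups, where 2.19% of all genes tested were higher with FSH without overlap. For Stab1 the lowest FSH library, at 19.978 CPM, was above the highest vehicle library, at 19.969 CPM, by less than 1 read is worth. For Clec4g they were at 21.4 and 19.5 CPM. The log2 fold change of Lyve1 was 0.04 (SE 0.09), and the 2 lower markers, Cdh5 and Vwf, had −0.06 (SE 0.16) and −0.22 (SE 0.17). Over the whole list, 4 of 9 had an unadjusted edgeR p under 0.05, all higher with FSH (background 6.42%), and none was at 0. At an FDR of 0.05 none passed in edgeR or limma-voom, and Clec4g passed in DESeq2 (adjusted p = 0.00836). Their summed level was 287, 250, 249 and 227 CPM in FSH replicates 1 to 4, the same order of animals as for Abcb1a. It was 217, 200, 194, 254 and 204 CPM in vehicle replicates 1 to 5, where the order differed. Vehicle replicate 4, highest for the markers, had Abcb1a at 94.6 CPM, and vehicle replicate 3, lowest for them, had it at 103 CPM. The part of these cells in the Abcb1a values was not tested.

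Abcg2, the breast cancer resistance protein, exports sulphated conjugates and drugs at the canalicular membrane. It was at 36.1, 21.5, 30.0 and 23.8 CPM in the FSH group and at 29.7, 13.9, 17.4, 15.9 and 9.68 CPM in the vehicle group. Vehicle replicate 1 lay within the FSH range, and the other vehicle libraries were all below it. The log2 fold change was 0.69 (SE 0.28, unadjusted p = 0.031, adjusted p = 0.39 in edgeR). Without vehicle replicate 1 it was 0.96 (adjusted p = 0.329 in edgeR). The groups could not overlap in that run, since it left out the only vehicle library within the FSH range. Of all genes tested, 5.41% did not overlap there. Without FSH replicate 1 the log2 fold change of Abcg2 was 0.54 (unadjusted p = 0.0975, adjusted p = 0.60 in edgeR).

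Abcg3l3 and Abcg3l1 are relatives of Abcg2 in rodents. Abcg3l3 averaged 4.91 ± 0.521 CPM in the FSH group and 3.94 ± 0.686 CPM in the vehicle group, at 5.04, 4.79, 4.28 and 5.53 CPM against 3.61, 3.53, 3.71, 3.67 and 5.16 CPM. Vehicle replicate 5 was the only vehicle animal within the FSH range (log2 fold change 0.32, SE 0.14, adjusted p = 0.422 in edgeR). Without FSH replicate 1 it was 0.31 (unadjusted p = 0.086 in edgeR). Abcg3l1 had a log2 fold change of 0.03 (SE 0.23). Reads of this pair are uncertain where the sequences are alike.

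Promoter windows were read from RefSeq (build GRCr8, 250 bases before to 50 after the annotated start) for 35 of the 44 members, and 3 are shown, for both drug exporters with higher values under FSH and for the shared start region of the sterol exporter pair. They are printed on the strand of the gene. Capitals mark every exact match, on either strand, of the half-site AGGTCA, the cyclic AMP element TGACGTCA, the antioxidant core TGACNNNGC, the TATA box TATAAA, the CCAAT box and the GC box GGGCGG. The windows are Abcb1a (chr4:26397599-26397898, minus strand), Abcg2 (chr4:89075224-89075523, plus strand) and Abcg5 (chr6:15717686-15717985, plus strand).
Abcb1a: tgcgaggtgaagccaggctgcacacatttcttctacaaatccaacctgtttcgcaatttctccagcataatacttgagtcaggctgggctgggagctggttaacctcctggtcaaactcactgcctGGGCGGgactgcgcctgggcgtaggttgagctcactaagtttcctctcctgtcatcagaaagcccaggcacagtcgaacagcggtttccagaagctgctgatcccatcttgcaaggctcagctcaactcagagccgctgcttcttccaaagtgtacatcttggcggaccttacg
Abcg2: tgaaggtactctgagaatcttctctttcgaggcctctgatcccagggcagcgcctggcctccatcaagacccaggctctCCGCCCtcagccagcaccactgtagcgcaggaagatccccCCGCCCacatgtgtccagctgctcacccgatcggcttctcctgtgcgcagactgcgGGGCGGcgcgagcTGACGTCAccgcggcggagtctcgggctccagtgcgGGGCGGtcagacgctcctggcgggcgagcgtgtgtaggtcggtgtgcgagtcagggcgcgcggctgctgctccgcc
Abcg5: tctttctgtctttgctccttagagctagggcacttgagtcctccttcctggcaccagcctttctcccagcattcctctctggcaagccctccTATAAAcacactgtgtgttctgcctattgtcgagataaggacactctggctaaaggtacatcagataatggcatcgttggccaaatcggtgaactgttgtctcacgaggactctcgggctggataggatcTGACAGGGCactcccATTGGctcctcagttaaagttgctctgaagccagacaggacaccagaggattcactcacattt

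The Abcb1a window held 1 match, a GC box, which occurs in 33.1% of all 33469 promoter windows and in 17 of the 35 member windows. The Abcg2 window held 4 GC boxes and the element TGACGTCA, whose first base is at position -62 from the start. That element was in 1.83% of all windows and in 3 of 35 member windows, those of Abcg2, Abce1 and Abcf2. Abce1 and Abcf2 had log2 fold changes of 0.04 (SE 0.08) and −0.05 (SE 0.08) in these livers. The half-site AGGTCA was in 5 of 35 member windows (14.3%) and in 16.2% of all windows, and direct repeats of it with 1 or 4 bases between were in 0 of 35. None of the matches in the 3 printed windows overlapped another. A match says only that the letters are there, and its absence says nothing beyond this window.

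The sterol exporters of the canalicular membrane varied widely among animals. Abcg5 and Abcg8 encode the partner subunits of a transporter that secretes cholesterol and plant sterols into bile, and their genes lie head to head. In RefSeq their starts are 206 bases apart on opposite strands, so that the promoter window of Abcg8 shares 295 bases with the Abcg5 window printed here. In the capitals of the Abcg5 window are the letters of a TATA box, an antioxidant core and a CCAAT box, the last on the minus strand. They occur in 14.2, 12.1 and 37.5% of all windows, and in 14.3, 14.3 and 31.4% of the member windows. The first base of the TATAAA match is at position -158 from the Abcg5 start.

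Abcg5 was at 10.6, 5.60, 18.9 and 7.39 CPM in FSH replicates 1 to 4, and at 4.82, 16.3, 6.43, 3.43 and 4.89 CPM in vehicle replicates 1 to 5. Abcg8 was at 1.11, 1.01, 7.71 and 1.51 CPM in the FSH group and at 0.733, 1.98, 0.601, 0.434 and 0.319 CPM in the vehicle group. In both genes FSH replicate 3 was the highest of all 9 libraries and vehicle replicate 2 the second highest. The coefficient of variation of Abcg8 was 115% with FSH and 82.5% with vehicle, and that of Abcg5 was 55.5% and 72.7%. Over the 36 members its median was 13.9% with FSH and 15% with vehicle, and over all genes tested 12.3% and 13.6%.

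The log2 fold change of Abcg8 was 1.76 (SE 0.71, unadjusted p = 0.0307, adjusted p = 0.39 in edgeR), and 0.53 without FSH replicate 3 or 2.43 without vehicle replicate 2. With vehicle replicate 2 left out, the 4 FSH libraries of Abcg8 lay above the 4 remaining vehicle libraries. This follows from leaving out the only vehicle library within the FSH range, and 6.09% of all genes tested did not overlap in that run. The log2 fold change of Abcg5 was 0.55 (SE 0.47, adjusted p = 0.70 in edgeR), and 0.11 without FSH replicate 3 or 1.11 without vehicle replicate 2. For both genes the size of the difference rests on these 2 animals.

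Abca1 and Abcg1 pass cholesterol and phospholipid to apolipoprotein A-I and to high-density lipoprotein. Abca1 was at 141, 117, 118 and 101 CPM in the FSH group and at 116, 128, 136, 112 and 131 CPM in the vehicle group, with wide overlap (log2 fold change −0.06, SE 0.10, adjusted p = 0.859 in edgeR). It was 0.01 without FSH replicate 4. Abcg1 was at 8.94, 9.50, 19.6 and 11.4 CPM in the FSH group and at 11.5, 6.30, 10.4, 9.20 and 10.4 CPM in the vehicle group.

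FSH replicate 3 was the only FSH library above all vehicle libraries for Abcg1. Its log2 fold change of 0.38 (SE 0.24, adjusted p = 0.598 in edgeR) was 0.06 without that animal. Abcg1 is also a gene of macrophages. The summed level of 9 Kupffer cell and macrophage markers was 434, 485, 649 and 474 CPM in the FSH group and 590, 257, 517, 522 and 707 CPM in the vehicle group, with none of the 9 at 0. For Abcg1 and for these markers alike, FSH replicate 3 was the highest FSH library and vehicle replicate 2 the lowest vehicle library. The highest vehicle library differed, being replicate 1 for Abcg1 (11.5 CPM) and replicate 5 for the markers (707 CPM). The part of these cells in the Abcg1 values was not tested.

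**Figure D3:**
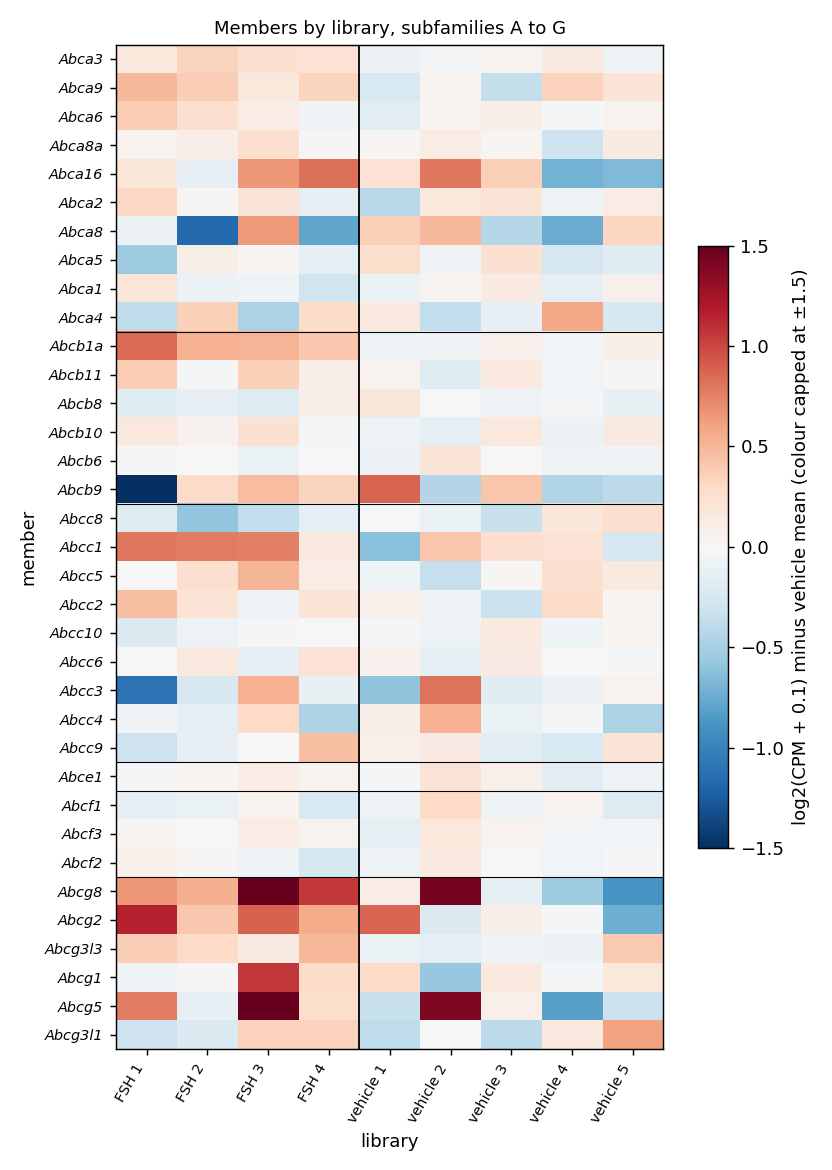
Log2(CPM + 0.1) of 35 of the 36 tested members in each library, minus the vehicle mean of the gene (red above, blue below, colour capped at 1.5; the black vertical line parts 4 FSH from 5 vehicle libraries and thin lines part the subfamilies). The Abcb1a row is red in all 4 FSH columns, and the Abcg5 and Abcg8 rows are dark red in FSH replicate 3 and vehicle replicate 2.

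Those 2 animals shared more than the sterol exporters. FSH replicate 3 and vehicle replicate 2 were the highest of their groups together for 8 of 36 members (22.2%), where 7.04% of all genes tested had that pair of libraries on top. The 8 were Abca8, Abcc3, Abcc4, Abce1, Abcf1, Abcf3, Abcg5 and Abcg8. This pair of libraries was chosen after the values were seen. Abcg5, Abcg8, Abcc3 and Abcc4, in which it was seen, are counted among the 8, so the share is not a test of it. Of the other 19 pairs of 1 FSH and 1 vehicle library, the most members any had was 4.

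In subfamily A, Abca3 had a small difference with no overlap between the groups. It encodes the phospholipid carrier of lung surfactant bodies, and its role in liver is less well described. Abca3 was at 72.4, 81.3, 75.8 and 75.5 CPM in the FSH group and at 60.8, 63.3, 67.4, 71.2 and 61.5 CPM in the vehicle group. The lowest FSH library was just above the highest vehicle library (log2 fold change 0.23, SE 0.07, unadjusted p = 0.00757, adjusted p = 0.287 in edgeR). With total counts as the only scaling, the groups overlapped.

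Abca6, Abca8, Abca8a, Abca9 and Abca5 follow one another in the deposited table. Abca6 was at 117 ± 15.2 CPM in the FSH group and 104 ± 6.83 CPM in the vehicle group (log2 fold change 0.18, SE 0.10), and Abca9 at 2.996 ± 0.293 and 2.38 ± 0.495 CPM (0.33, SE 0.17). Neither passed, at unadjusted p of 0.0918 and 0.0811 in edgeR. Abca8a was at 263 ± 17.5 CPM in the FSH group and 246 ± 28.0 CPM in the vehicle group, Abca8 at 8.14 ± 4.64 and 9.78 ± 3.37 CPM, and Abca5 at 0.617 ± 0.131 and 0.687 ± 0.131 CPM. All 3 had overlapping groups. Abca8 and Abca8a are close relatives and may share reads.

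The remaining members of A had larger errors than differences. Abca2, of lysosomes, had a log2 fold change of 0.09 (SE 0.13), Abca4, a retinoid carrier of photoreceptors, −0.05 (SE 0.26), and Abca16 0.32 (SE 0.33). Abca16 ranged from 2.60 to 5.10 CPM in the FSH group and from 1.70 to 4.97 CPM in the vehicle group.

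The mitochondrial members Abcb10 and Abcb8 of subfamily B did not pass the test. Abcb10, which acts in haem metabolism, was at 12.2 ± 0.964 CPM in the FSH group and 11.4 ± 1.11 CPM in the vehicle group (log2 fold change 0.11, SE 0.09). Abcb8 was at 26.8 ± 2.60 and 28.7 ± 2.31 CPM (−0.10, SE 0.09).

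Abcb6, a porphyrin carrier, was at 52.6 ± 1.75 CPM in the FSH group and 54.0 ± 4.30 CPM in the vehicle group (log2 fold change −0.04, SE 0.07). Abcb9, a peptide carrier of lysosomes, was low and scattered, at 0.238, 1.26, 1.43 and 1.30 CPM in the FSH group and 0.710 to 1.94 CPM in the vehicle group (−0.05, SE 0.47). None of these 4 members had an unadjusted p under 0.05, which does not show that their levels were equal.

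In subfamily C, Abcc8 was the 1 member with lower values under FSH at an unadjusted p under 0.05. It encodes SUR1, the sulphonylurea receptor that regulates ATP-sensitive potassium channels in pancreatic beta cells. Abcc8 was at 9.61, 7.18, 8.41 and 9.85 CPM in the FSH group and at 10.9, 10.2, 8.66, 12.2 and 13.0 CPM in the vehicle group. Vehicle replicate 3 lay among the FSH libraries, and the other 4 vehicle libraries were above them all. The log2 fold change was −0.33 (SE 0.14, unadjusted p = 0.0392, adjusted p = 0.404 in edgeR).

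Abcc9, the SUR2 subunit of vascular and muscle channels, was at 9.33 ± 2.25 CPM in the FSH group and 9.18 ± 1.20 CPM in the vehicle group (log2 fold change 0.02, SE 0.16). Pericytes express it, and the summed level of 10 stellate cell and pericyte markers was 240 to 273 CPM in the FSH group and 287 to 342 CPM in the vehicle group, without overlap. Of these 10 markers 9 had lower values with FSH, where 50.5% of all genes tested had higher ones. Col3a1 and Col1a1 were lower at an unadjusted edgeR p under 0.05 (2 of 10, background 5.14%), and none was at 0. Rgs5 was the 1 marker with higher values, with a log2 fold change of 0.37 (SE 0.21), and Pdgfrb had −0.03 (SE 0.16). At an FDR of 0.05 none of the 10 passed in edgeR or limma-voom, and Col3a1 passed in DESeq2 (adjusted p = 0.0166). The gap between the groups rested on Col3a1, since the other 9 markers summed to 123 to 144 CPM in the FSH group and 140.04 to 178 CPM in the vehicle group, which overlap. Of the channel pores, Kcnj8 had a log2 fold change of 0.29 (SE 0.27). Leaving out vehicle replicate 3 gave 0.086 for Kcnj8, and leaving out vehicle replicate 5 gave 0.46. Kcnj11 had too few reads to be tested.

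Abcc1, an exporter of glutathione conjugates that most hepatocytes hold at low levels, was at 0.874, 0.852, 0.848 and 0.519 CPM in the FSH group and at 0.262, 0.648, 0.565, 0.553 and 0.372 CPM in the vehicle group. These values rest on 5 to 22 reads a library. FSH replicate 4 lay within the vehicle range and the other 3 were above it (log2 fold change 0.65, SE 0.28, unadjusted p = 0.0424, adjusted p = 0.413 in edgeR). Without FSH replicate 1 it was 0.59 (unadjusted p = 0.0964 in edgeR). Abcc5, a nucleotide exporter, was at 10.3 ± 1.62 CPM in the FSH group and 8.89 ± 1.37 CPM in the vehicle group (0.22, SE 0.14). Abcc10 was at 15.4 ± 1.02 and 16.3 ± 1.07 CPM (−0.08, SE 0.08).

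The soluble members of E and F had fold changes close to 0. Abce1, which splits ribosomes after translation ends, was at 62.6 ± 2.62 CPM in the FSH group and 61.1 ± 6.07 CPM in the vehicle group. Abcf1, which acts in translation initiation, was at 57.8 ± 4.83 and 62.2 ± 8.44 CPM. Abcf2 was at 46.2 ± 4.38 and 47.8 ± 3.07 CPM, and Abcf3 at 55.5 ± 2.01 and 53.7 ± 4.25 CPM. Their log2 fold changes lay between −0.11 and 0.05, with standard errors of 0.07 to 0.10.

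**Figure D4:**
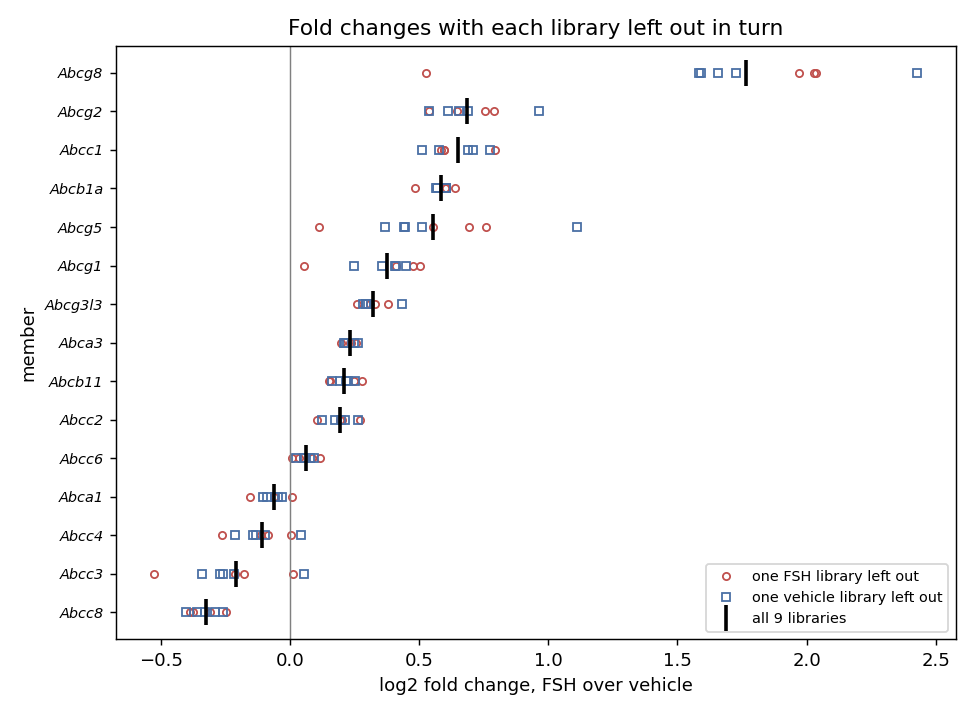
Log2 fold change of FSH over vehicle for 15 members with all 9 libraries (black bars), with each FSH library left out (red circles) and with each vehicle library left out (blue squares). Abcb1a stays between 0.48 and 0.64, whereas 1 red circle of Abcg8, at 0.53, and 1 blue square, at 2.43, lie far from its black bar at 1.76.

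Partner genes of the transporters gave few values beyond their spread, and none of 50 tested in 6 lists passed at an FDR of 0.05 in edgeR, DESeq2 or limma-voom. Among 13 uptake and basolateral carriers, 9 were tested, with 5 higher and 4 lower. Slco2b1, an organic anion uptake carrier, was at 272 ± 15.3 CPM in the FSH group and 233 ± 27.0 CPM in the vehicle group (log2 fold change 0.22, SE 0.09, unadjusted p = 0.0403, adjusted p = 0.408 in edgeR), and the other 8 had an unadjusted p above 0.05. Without FSH replicate 1 the unadjusted p of Slco2b1 was 0.0536 in edgeR. Slc51a and Slc51b, the subunits of a basolateral bile salt exporter, were listed at 0.

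Of 14 transcription factors known to act on ABC genes, 9 had higher and 5 lower values with FSH. Nr0b2, the repressor SHP that bile acid signalling induces, was at 24.3 ± 3.09 CPM in the FSH group and 40.2 ± 14.1 CPM in the vehicle group (log2 fold change −0.72, SE 0.27, unadjusted p = 0.024, adjusted p = 0.367 in edgeR). Vehicle replicate 4, at 16.2 CPM, lay below all FSH libraries (19.9 to 26.9 CPM). The unadjusted edgeR p of Nr0b2 stayed under 0.05 with 7 of the 9 animals left out. It was 0.0634 without FSH replicate 3 and 0.0573 without vehicle replicate 1, and limma-voom gave 0.0941 with all animals. The receptors for foreign chemicals, Nr1i2 (PXR) and Nr1i3 (CAR), had 0.21 (SE 0.14) and 0.57 (SE 0.45), and the oxysterol receptor Nr1h3 had −0.11 (SE 0.08).

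Among 13 tested scaffold and trafficking genes of the apical membrane, 10 had higher and 3 lower values with FSH, none at an unadjusted p under 0.05. The smallest p belonged to Myo5b, a motor of apical recycling vesicles (log2 fold change 0.15, SE 0.09). Of 10 tested sterol and phospholipid efflux partners, 6 had higher and 4 lower values, and Apoa1, the acceptor for Abca1, had −0.35 (SE 0.19), or −0.17 without vehicle replicate 4. Among the ABC genes under other symbols, the peptide carrier subunits Tap1 and Tap2 had 0.18 (SE 0.14) and 0.03 (SE 0.17), and Cftr, the chloride channel of bile ducts, had −0.74 (SE 0.34) at 0.353 CPM in the FSH group and 0.589 CPM in the vehicle group. With all animals the unadjusted p of Cftr was 0.0567 (adjusted p = 0.448 in edgeR). Its fold change was −1.20 without FSH replicate 2 (unadjusted p = 0.00265, adjusted p = 0.255 in edgeR). It was −0.57 without FSH replicate 4 (unadjusted p = 0.146 in edgeR), and these were the extremes with 1 animal left out. Single libraries of Cftr lay at 0.216 to 0.720 CPM, which rests on few reads. The 7 cholangiocyte markers with a row summed to 32.9 to 40.8 CPM in the FSH group and 36.6 to 50.3 CPM in the vehicle group, with none at 0, and their part in the Cftr values was not tested.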

How the data were processed

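Snap-frozen liver gave mRNA libraries that were stranded and read from both ends, per the labels' protocols. The deposited table lists raw read counts per gene under Ensembl identifiers, with no normalisation by the authors. STAR, edgeR, DESeq2 and the build rn6 appear in the submitters' processing notes. Tool versions, gene annotation and counting strand were not given in the sources used here.

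The 4 FSH libraries were compared with the 5 vehicle libraries in edgeR 4.0.16 (R 4.3.3), by the 2-sided quasi-likelihood F-test with scaling by trimmed means of M values. Genes of low count were filtered by group and p-values adjusted by Benjamini-Hochberg over 11924 genes. Standard errors come from the fold change and F. Alternatives used a replicate block, DESeq2 1.42.0, limma-voom (limma 3.58.1) with sample weights, DESeq2-type or total-count scaling, no filter, at least 1 CPM in 4 libraries, an FDR of 0.10, and leaving out each animal. The steps were tested on simulated data. No library repeated another of its group (chi-square per degree of freedom at least 25.9).

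All members are described except 1, which, like 1 partner gene, is counted in the totals but not reported here. Every library is given for the main liver exporters and for members with an unadjusted p under 0.05. Partner genes were named by p, at most 4 a list or the smallest, with others added after their values were seen. Members and lists were chosen with earlier results of these data known. Sequences are from RefSeq (GRCr8), another build than rn6, so no position is given for a count.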

Additional observations from a re-analysis of the deposited data

Results flagged for a closer look

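Within each group, the gap between the most extreme library and its neighbour was set against the whole range for 36 members, 72 sets of values in all. It exceeded Dixon's limit in 7 of them, where chance gives about 3.6. The highest libraries were FSH replicate 3 for Abcg8 (7.71 CPM, next 1.51), vehicle replicate 2 for Abcg8 (1.98 CPM, next 0.733) and for Abcg5 (16.3 CPM, next 6.43), and vehicle replicate 5 for Abcg3l3 (5.16 CPM, next 3.71). The lowest were FSH replicate 1 for Abcb9 (0.238 CPM, next 1.26), FSH replicate 4 for Abcc1 (0.519 CPM, next 0.848) and vehicle replicate 4 for Abca8a (198 CPM, next 250.02). Abcg5 and Abcg8 in vehicle replicate 2 come from neighbouring genes of 1 animal and are not independent.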

How the results depend on the processing

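The direction of Abcb1a, Abcg2, Abcg5, Abcg8, Abca3, Abcb11, Abcc2, Abcc6, Abcc8, Abcc1, Abcg1 and Abcg3l3 held in every alternative run that gave the member a p. For Abcg8 DESeq2 gave no p (log2 fold change 1.79), and Abcc1 was not tested with at least 1 CPM in 4 libraries. DESeq2 called 177 genes and 1 member, against 4 genes and 0 members in edgeR. At an FDR of 0.10 there were 12 genes and 1 member, Abcb1a. Total-count scaling left 1 member without overlap (2.78%, against 3.45% of all genes tested). With 1 animal left out, the calls numbered 0 to 4 genes and 0 members, the members at an unadjusted p under 0.05 numbered 3 to 7 (8.33 to 19.4%, against 9.15 to 12.2% of all genes tested), and those without overlap 2 to 5 (5.56 to 13.9%, against 5.41 to 8.36%). Without each animal in turn, Abcc3 lay between −0.52 and 0.056, Abcc4 between −0.26 and 0.045 and Abca1 between −0.15 and 0.010. Abcc3 turned to 0.012 without FSH replicate 1 and 0.056 without vehicle replicate 2, Abcc4 to 0.0045 without FSH replicate 4 and 0.045 without vehicle replicate 2, and Abca1 to 0.010 without FSH replicate 4. The cause was not tested. The lowest vehicle minus the highest FSH sum of stellate cell markers was 13.95 CPM, and −3.79 CPM without Col3a1, a choice made after seeing the data. With the replicate number as a block edgeR called 5 genes and 0 members, with 5 members at an unadjusted p under 0.05 (13.9%, against 9.79% of all genes tested). Correlations of deviations were −0.059 to 0.0497 for same-numbered animals and −0.185 to 0.139 for animals with different numbers. With so few animals they cannot exclude a pairing, and the main test used none. Low counts limit Abcc1, Abcg8, Abcb9 and Abca5.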
